A study of Mus musculus with 9 samples.

Results

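The genes described here lie around Itgae on mouse chromosome 11: Haspin, Ncbp3, Camkk1, P2rx1, Atp2a3, P2rx5, Zzef1, Ankfy1 and, farther along the chromosome, Cpd. They were picked by name as neighbours of Itgae, with earlier results of these arrays known, so their values are descriptions and no gene was tested as an independent candidate. Of the 9 genes, 8 had an array row whose platform annotation named that gene alone, 1 row each, and 7 of these were bright enough to enter the tests, out of 12792 genes tested among 22180 with a row. Camkk1, a kinase that activates calmodulin-dependent kinases, was not analysed here, since no row used here names it. The row of Itgae is given beside them.

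The arrays measured RNA of regulatory T cells (Tregs) sorted on a red fluorescent reporter tied to Foxp3, from small and large intestinal lamina propria of C57BL/6 mice. There were 3 arrays from Y3/CD103-/- mice, 3 from Y3 mice and 3 from WT mice, so the Y3 alteration is carried by 6 of the 9 arrays and no group lacks CD103 alone. CD103 and the IL-2 receptor β chain appear in the series title. Y3 itself, the design of the CD103-/- allele, the animals' age and sex and any pooling are not described in the labels. Each p-value therefore measures the spread between these arrays, which may be technical. Their number limits the precision, with a half-width of 0.447 log2 for the 95% interval of the median gene.

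Itgae encodes CD103, the αE integrin chain that pairs with β7 and binds E-cadherin on epithelial cells, and many intestinal Tregs carry it. Haspin, a kinase that phosphorylates histone H3 in mitosis, has its gene inside Itgae: in the GRCm38.p6 gene table it was the only gene overlapping the span of Itgae. A gene disrupted in one mouse strain and bred into another travels with a flanking stretch of its original chromosome, which is why neighbours of a targeted gene are often inspected beside it. In these bulk samples, fewer cells that express a gene and less RNA per cell cannot be told apart.

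In the order of that table, Haspin was the first gene after Itgae and P2rx5 came 2 positions after it. Before Itgae came Ncbp3 at 1 position, Camkk1 at 2, P2rx1 at 4, Atp2a3 at 5, Zzef1 at 10 and Ankfy1 at 13. Cpd lay 140 positions after Itgae, or 88 counted over protein-coding genes, and so is on the same chromosome but not an immediate neighbour.

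Promoter sequences from RefSeq (GRCm38.p6, 250 bases before to 50 after the gene start, 5′ to 3′ on the gene's strand) matched 8 of the 9 genes. Shown are Haspin, Atp2a3 and Cpd, whose signal changed between groups, and Ncbp3, the gene next to Itgae on the other side. Capitals mark short motifs found on either strand: the GC box GGGCGG, the cell-cycle element TTTGAA, the CCAAT box CCAAT, the RUNX core TGTGGT and the STAT pattern TTCNNNGAA. Overlapping GC boxes in Atp2a3 were counted separately.

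Haspin, chr11:73138245-73138544, minus strand: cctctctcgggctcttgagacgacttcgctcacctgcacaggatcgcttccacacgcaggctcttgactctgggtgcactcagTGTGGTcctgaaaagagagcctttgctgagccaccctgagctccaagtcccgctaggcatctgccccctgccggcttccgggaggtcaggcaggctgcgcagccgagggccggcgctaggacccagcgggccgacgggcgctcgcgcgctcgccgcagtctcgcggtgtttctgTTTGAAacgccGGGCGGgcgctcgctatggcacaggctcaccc

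Atp2a3, chr11:72960919-72961218, plus strand: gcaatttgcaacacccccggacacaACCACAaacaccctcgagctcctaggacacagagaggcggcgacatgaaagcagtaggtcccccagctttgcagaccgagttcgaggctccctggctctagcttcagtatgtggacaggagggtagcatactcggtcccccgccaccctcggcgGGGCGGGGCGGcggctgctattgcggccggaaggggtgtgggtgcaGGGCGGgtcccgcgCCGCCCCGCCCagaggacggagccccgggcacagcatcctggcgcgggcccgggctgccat

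Cpd, chr11:76846959-76847258, minus strand: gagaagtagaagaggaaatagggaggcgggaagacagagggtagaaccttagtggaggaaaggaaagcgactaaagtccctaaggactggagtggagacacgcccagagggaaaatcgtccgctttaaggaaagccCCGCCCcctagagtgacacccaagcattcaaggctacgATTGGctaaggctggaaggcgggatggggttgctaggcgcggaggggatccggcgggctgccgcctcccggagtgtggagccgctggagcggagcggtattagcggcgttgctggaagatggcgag

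Ncbp3, chr11:73047617-73047916, plus strand: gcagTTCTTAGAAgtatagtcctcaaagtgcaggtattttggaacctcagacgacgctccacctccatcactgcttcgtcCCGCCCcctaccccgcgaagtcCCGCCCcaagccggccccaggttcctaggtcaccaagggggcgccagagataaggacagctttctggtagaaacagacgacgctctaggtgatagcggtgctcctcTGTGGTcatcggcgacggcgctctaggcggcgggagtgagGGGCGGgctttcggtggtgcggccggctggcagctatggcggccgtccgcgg

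The window of Haspin held 1 GC box, 1 cell-cycle element and 1 RUNX core, and that of Atp2a3 held 5 GC boxes and 1 RUNX core. The window of Cpd held 1 GC box and 1 CCAAT box, and that of Ncbp3 held 3 GC boxes, 1 RUNX core and 1 STAT pattern. Among 32851 promoters of the same length, 35.7% held a GC box, 17.9% the cell-cycle element, 37.4% the CCAAT box, 16.8% the RUNX core and 8.3% the STAT pattern. G and C made up 67% of the bases in Haspin, 68.3% in Atp2a3, 59.7% in Cpd and 63.3% in Ncbp3, against a median of 52.7% over all promoters. These matches are descriptions of the letters, not binding sites.

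All values below are log2 signal on the deposited scale, and levels of different genes' rows are not comparable with each other. The labels were checked first. Itgae read 6.64, 6.05 and 6.86 on Y3/CD103-/- arrays 1, 2 and 3, 9.35, 9.11 and 9.51 on the Y3 arrays, and 8.06, 7.87 and 7.85 on the WT arrays. The 3 groups did not overlap in any pairing, with Y3/CD103-/- lowest and Y3 highest. Its rise in Y3 against WT ended as a call at an adjusted p of 0.0948 when Y3 array 1 was left out, 0.113 for Y3 array 3, 0.0571 for WT array 2 and 0.0509 for WT array 3. Its fall in Y3/CD103-/- against WT ended as one (0.0538) when WT array 1 was left out. Of 12 other settings, 2 ended the first (up to 0.106), 2 the second (up to 0.0773) and 1 the fall against Y3 (0.0941). Signal remained in Y3/CD103-/-, and the sources used here do not give the stretch of Itgae that the row covers. Il2rb, which encodes the IL-2 receptor β chain, averaged 8.16 ± 0.31 in Y3/CD103-/-, 8.15 ± 0.32 in Y3 and 9.19 ± 0.22 in WT (SD, n = 3 each). Foxp3, the defining factor of Tregs, averaged 9.55 ± 0.06 in Y3/CD103-/-, 9.52 ± 0.17 in Y3 and 9.38 ± 0.09 in WT (SD, n = 3 each).

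All 7 Treg markers listed (Foxp3, Il2ra, Ctla4, Ikzf2, Tnfrsf18, Cd4 and Cd3e) stood above the median of every array. Their signals, summed on the linear scale, ran from 4862 to 5228 in Y3/CD103-/-, 5032 to 5126 in Y3 and 4944 to 5093 in WT. Within that list Il2ra, the α chain of the IL-2 receptor, was 1.82-fold lower in Y3/CD103-/- than in WT (adjusted p = 0.0258) and 1.57-fold lower in Y3 than in WT, where it missed the threshold (0.0790). Its arrays read 7.12, 7.29 and 7.45 in Y3/CD103-/-, 7.41, 7.48 and 7.61 in Y3, and 8.11, 8.15 and 8.19 in WT, so both groups with Y3 lay below WT. Leaving out any array but Y3 array 2 ended that call, at 0.0527 to 0.0809. Epithelial markers were present too: 7 to 8 of 8 stood above the array median, and their summed signal ran from 162.2 to 741.1 in Y3/CD103-/-, 162.0 to 273.2 in Y3 and 403.3 to 870.1 in WT. The 6 macrophage and dendritic markers summed to between 181.6 and 209.2 in Y3/CD103-/-, 154.4 and 161.8 in Y3, and 138.8 and 194.0 in WT. The 3 measured B and plasma cell markers summed to 56.9 to 132.4 in Y3/CD103-/-, 35.3 to 57.3 in Y3 and 65.9 to 97.6 in WT. No marker is at 0 on this scale. Without overlap, the Y3 arrays thus carried less summed epithelial and less summed B and plasma signal than the WT arrays, and the Y3/CD103-/- arrays more summed macrophage and dendritic signal than the Y3 arrays. The 6 macrophage and dendritic markers did not move alike in the latter comparison, and none passed. Csf1r differed by 0.91 log2, Adgre1 by 0.38 and C1qa by 0.31, each without overlap, while Lyz2 (0.61), Itgax (0.25) and Cd68 (-0.03) overlapped. The 4 CD8 T and NK markers (37.2 to 57.4, 44.1 to 54.7 and 51.4 to 52.8) and the 4 stromal and endothelial markers (68.9 to 77.4, 59.2 to 82.0 and 65.1 to 79.9, both in the same order of groups) overlapped. The part of these cells in the differences below was not tested.

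**Figure D1:**
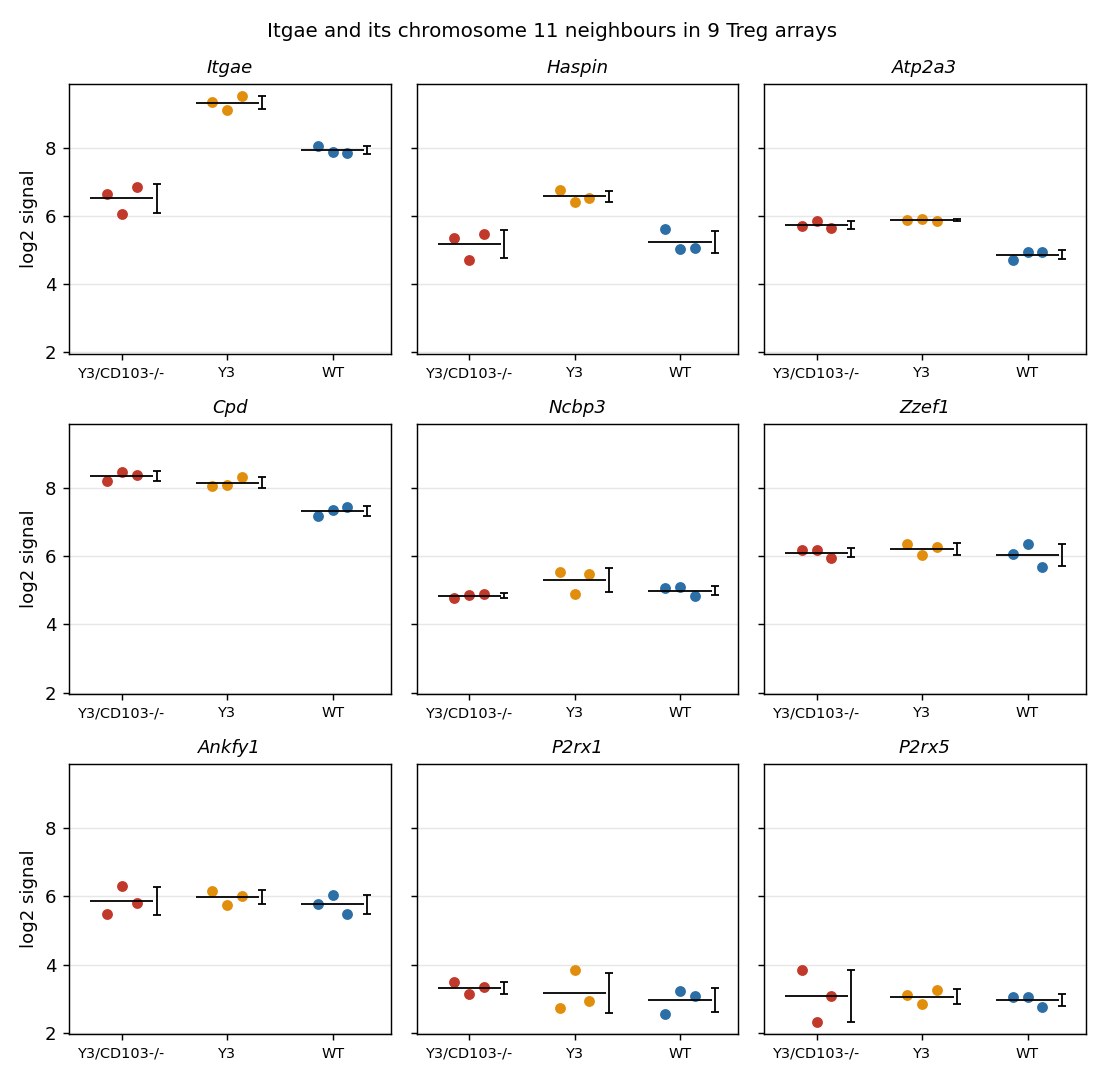
Log2 signal (vertical axis) of Itgae and the 8 measured neighbours on each array, with Y3/CD103-/-, Y3 and WT from left to right; points are arrays, lines are group means and bars are SD over 3 arrays. Haspin is high in Y3 only, Atp2a3 and Cpd are high in both groups with Y3, the 3 groups of Itgae stand apart, and the groups of the other genes overlap.

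Haspin, the gene nested in Itgae, read 5.36, 4.72 and 5.46 on Y3/CD103-/- arrays 1, 2 and 3, 6.76, 6.42 and 6.54 on the Y3 arrays, and 5.62, 5.05 and 5.07 on the WT arrays. Its 3 Y3 arrays lay above all 6 others, while Y3/CD103-/- and WT overlapped. The group means were 5.18 ± 0.40 in Y3/CD103-/-, 6.57 ± 0.17 in Y3 and 5.25 ± 0.32 in WT (SD, n = 3 each).

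In Y3 against WT, Haspin rose 2.51-fold (log2 1.33 ± 0.23 SE, 95% interval 0.81 to 1.84; limma, adjusted p = 0.0296), close to the 2.63-fold rise of Itgae (adjusted p = 0.0169). In Y3/CD103-/- against Y3, its log2 difference was -1.39 ± 0.23 (SE, 95% interval -1.90 to -0.88), or 2.62-fold lower. That difference ranked 5 by p among the 12792 genes, but its adjusted p was 0.182, so it did not pass; Itgae fell by 2.81 log2 there (adjusted p = 0.000679). With limma's trended and robust variance it passed (adjusted p = 0.0280), and likewise with array weights (0.0352). Under the other 10 of 12 settings it missed the threshold, at up to 0.817 when Y3 arrays 1 and 3 were averaged. Dropping any single array did not bring it under 0.05 either. Its adjusted p then ran from 0.179 to 0.824, the highest without Y3 array 3, and was 0.754 without Y3 array 1. Y3/CD103-/- and WT differed by -0.06 (95% interval -0.57 to 0.45, adjusted p = 0.937), an interval that holds both a moderate rise and a moderate fall. The call in Y3 depended on which arrays were kept: the adjusted p became 0.0886 when WT array 2 was left out, 0.0810 for WT array 3, 0.147 for Y3 array 1, 0.0776 for Y3 array 2 and 0.148 for Y3 array 3. The call also ended in 4 of 12 other settings, among them quantile normalization (0.0574), at up to 0.147.

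Haspin and Itgae were compared within each array, a measure chosen after their values were seen and given without a test. Itgae minus Haspin was 1.27, 1.33 and 1.40 log2 on Y3/CD103-/- arrays 1, 2 and 3, 2.59, 2.69 and 2.97 on the Y3 arrays, and 2.44, 2.82 and 2.78 on the WT arrays. The gap differed by 0.07 between Y3 and WT and by -1.42 between Y3/CD103-/- and Y3. The differences of the 2 genes between Y3 and WT were thus of like size, while the gap was smaller on each Y3/CD103-/- array than on any Y3 array. Over all genes, 5 of 12792 (0.0391%) were at least 1 log2 higher in Y3 than in WT and at least 1 log2 lower in Y3/CD103-/- than in Y3, and Itgae and Haspin are among them; both differences share the Y3 arrays, and Haspin was known to show them. Since the 2 genes overlap and the probes of each row are not given here, RNA of Itgae may enter the Haspin row, and this was not tested.

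**Figure D2:**
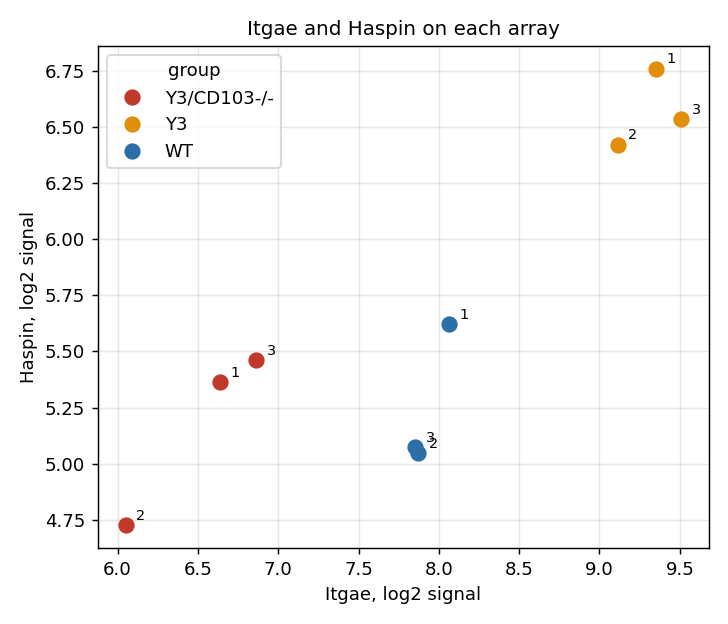
Itgae (horizontal) against Haspin (vertical), both in log2 signal, 1 point per array with its replicate number, coloured by group. The Y3 arrays stand apart at the top right, and Y3/CD103-/- and WT arrays share one range of Haspin, 4.72 to 5.62, at different Itgae levels.

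The genes of calcium handling and ATP sensing differed in their patterns. Atp2a3, which encodes a pump that returns calcium to the endoplasmic reticulum, read 5.70, 5.86 and 5.64 on Y3/CD103-/- arrays 1, 2 and 3, 5.87, 5.91 and 5.86 on the Y3 arrays, and 4.72, 4.93 and 4.94 on the WT arrays. All 6 arrays with Y3 lay above the 3 WT arrays. It rose 1.83-fold in Y3/CD103-/- against WT (log2 0.87 ± 0.15 SE, adjusted p = 0.0244) and 2.02-fold in Y3 against WT (1.02 ± 0.15, adjusted p = 0.0124). Between Y3/CD103-/- and Y3 the difference was -0.15 (95% interval -0.47 to 0.17, adjusted p = 0.751). Leaving out Y3 array 1 (0.0871) or Y3 array 3 (0.0939) ended the call in Y3, as did 1 of 12 other settings (0.0842). For the rise in Y3/CD103-/-, leaving out any array but Y3 array 2 ended the call, at 0.0515 to 0.0785, as did 4 of 12 other settings (up to 0.111).

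P2rx1 and P2rx5 encode ion channels opened by extracellular ATP, and both were dim. P2rx1 read 3.47, 3.13 and 3.33 on Y3/CD103-/- arrays 1, 2 and 3, 2.72, 3.84 and 2.94 on the Y3 arrays, and 2.56, 3.23 and 3.07 on the WT arrays. P2rx5 read 3.83, 2.33 and 3.08 on the Y3/CD103-/- arrays, 3.11, 2.83 and 3.25 on the Y3 arrays, and 3.06, 3.05 and 2.76 on the WT arrays. Groups overlapped for both genes. P2rx1 exceeded its array's median on 4 of 9 arrays and was tested; its intervals were wide, from -0.47 to 0.77 for Y3/CD103-/- against Y3 and from -0.41 to 0.83 for Y3 against WT. P2rx5 exceeded the median on 2 arrays and was left out of the tests.

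Cpd, a carboxypeptidase of the trans-Golgi network that trims basic residues from processed proteins, read 8.21, 8.48 and 8.37 on Y3/CD103-/- arrays 1, 2 and 3, 8.06, 8.08 and 8.33 on the Y3 arrays, and 7.16, 7.37 and 7.45 on the WT arrays. As with Atp2a3, the 6 arrays with Y3 lay above all WT arrays. Cpd rose 2.04-fold in Y3/CD103-/- against WT (log2 1.03 ± 0.16 SE, adjusted p = 0.0178) and 1.78-fold in Y3 against WT (0.83 ± 0.16, adjusted p = 0.0399). Between Y3/CD103-/- and Y3 it differed by 0.19 (95% interval -0.16 to 0.54, adjusted p = 0.711). Leaving out any array but Y3/CD103-/- array 1 ended the call in Y3, at an adjusted p of 0.0529 to 0.214, as did 7 of 12 other settings (up to 0.175). The call in Y3/CD103-/- ended when WT array 1 (0.0555), Y3/CD103-/- array 2 (0.0662) or Y3/CD103-/- array 3 (0.0756) was left out, and in 1 of 12 other settings (0.0845).

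Ncbp3, a nuclear protein that binds the cap of messenger RNA, is the nearest gene on the other side of Itgae. It read 4.76, 4.87 and 4.89 on Y3/CD103-/- arrays 1, 2 and 3, 5.54, 4.89 and 5.46 on the Y3 arrays, and 5.06, 5.09 and 4.83 on the WT arrays. Y3 arrays 1 and 3 were high, while Y3 array 2 lay within the range of the other groups. Its log2 difference between Y3/CD103-/- and Y3 was -0.46 (95% interval -0.87 to -0.04, adjusted p = 0.475), and between Y3 and WT 0.30 (-0.11 to 0.72, adjusted p = 0.433). Neither passed.

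Zzef1, a large protein with zinc finger and EF-hand domains, read 6.18, 6.18 and 5.96 on Y3/CD103-/- arrays 1, 2 and 3, 6.35, 6.02 and 6.28 on the Y3 arrays, and 6.06, 6.36 and 5.69 on the WT arrays. Ankfy1, or Rabankyrin-5, an effector of the small GTPase Rab5 on early endosomes, read 5.48, 6.31 and 5.80 on the Y3/CD103-/- arrays, 6.15, 5.76 and 6.01 on the Y3 arrays, and 5.76, 6.04 and 5.49 on the WT arrays. All groups overlapped for both genes. Their differences lay between -0.11 and 0.21 in the 3 comparisons, with intervals that reached at most 0.72 above 0 and 0.62 below it.

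**Figure D3:**
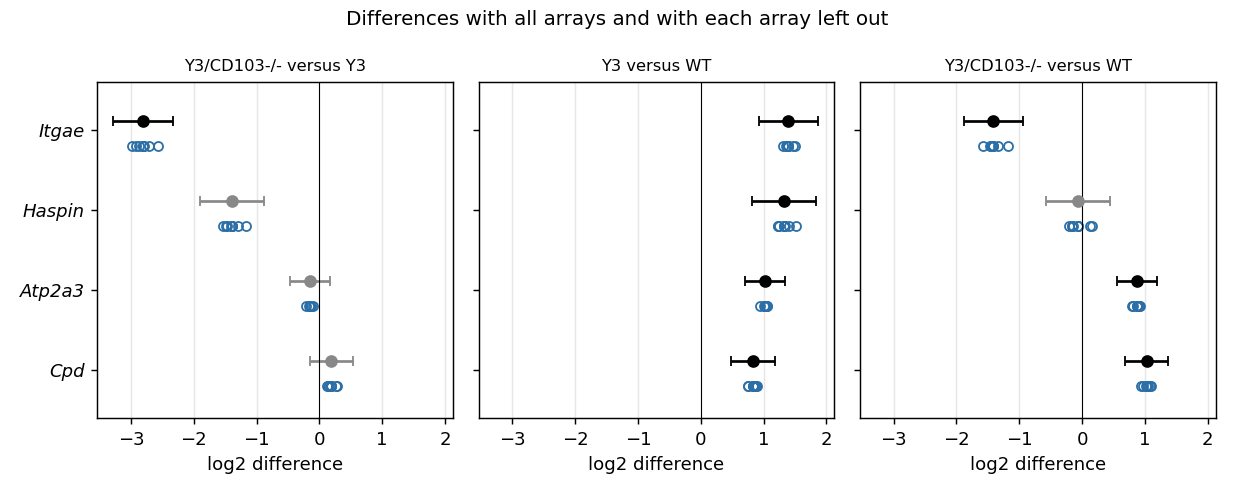
Log2 differences (horizontal axis) of Itgae, Haspin, Atp2a3 and Cpd in the 3 comparisons; filled points with bars are estimates from all 9 arrays with 95% intervals, black where the adjusted p was under 0.05 and grey otherwise, and open circles are the 9 estimates with an array left out. The differences that were called kept their sign with every array left out. Of those not called, Haspin lay between -1.53 and -1.16 in Y3/CD103-/- against Y3 and took both signs, -0.20 to 0.17, in Y3/CD103-/- against WT.

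The called neighbours were counted beside the share of all genes called in each comparison. Between Y3/CD103-/- and Y3, 0 of the 7 tested neighbours passed (limma), beside 0.00782% of all tested genes, which is Itgae alone. At an unadjusted p under 0.05, 2 of the 7 had a negative difference. Over all genes 9.9% had such a p in either direction, and 1039 of 12792 were lower. In Y3 against WT, 3 of 7 rose (Haspin, Atp2a3 and Cpd) and 0 fell, beside 0.79% of all genes called and 0.618% called higher. For Y3/CD103-/- against WT, 2 of 7 rose (Atp2a3 and Cpd) and 0 fell, beside 0.836% of all genes called, 0.555% called higher and 0.281%, Itgae among them, called lower. Groups did not overlap for 1 of 7 in Y3/CD103-/- against Y3, Haspin, beside 18.6% of all genes and 14.4% lower. They did not overlap for 3 of 7 in Y3 against WT, all higher, beside 23.9% of all genes and 19% higher. The count was 2 of 7 in Y3/CD103-/- against WT, both higher, beside 17.4% of all genes, 10.7% higher and 6.68% lower. Without Cpd, which lies farther along the chromosome, 0 of 6 passed in Y3/CD103-/- against Y3, 2 of 6 in Y3 against WT and 1 of 6 in Y3/CD103-/- against WT. The shares over all genes also move when 1 array is left out, from 101 genes to 8 without Y3 array 3 in Y3 against WT and from 107 to 28 without Y3/CD103-/- array 3 in Y3/CD103-/- against WT. These counts are descriptions, since the neighbours were picked with such results known, and both comparisons with WT use the same WT arrays.

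The median of all genes was itself off 0, at -0.10 in Y3/CD103-/- against Y3, 0.15 in Y3 against WT and 0.04 in Y3/CD103-/- against WT. Relative to it, Haspin stood 1.18 higher in Y3 than in WT, Atp2a3 0.87 and Cpd 0.68. All 7 tested neighbours had a positive difference in Y3 against WT, in a comparison where 9013 of 12792 genes did. Their median was 0.30, and in Y3/CD103-/- against Y3 it was -0.11. Over all genes, the split in Y3 against WT was 79 higher and 22 lower as deposited, but 46 and 32 with quantile normalization and 46 and 54 with arrays centred on the median of the tested genes.

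A window of 25 genes on each side of Itgae, taken by order alone, held 50 genes, of which 18 were tested. Between Y3/CD103-/- and Y3, 0 of 18 passed and 2, Haspin and Ncbp3, were lower at an unadjusted p under 0.05, where 9.9% of all genes had such a p. The 18 differences ran from -1.39 to 0.15 with a median of -0.13, beside -0.10 over all genes and -0.09 over the 1041 other tested genes of chromosome 11 more than 50 positions away. In Y3 against WT, 2 of 18 rose, Haspin and Atp2a3, with a median of 0.20; 4 of 18 had an unadjusted p under 0.05, against 17% of all genes. For Y3/CD103-/- against WT, 1 of 18, Atp2a3, rose, with a median of -0.03, and 2 had such a p, against 13.3% of all genes. Without those 2 genes, 0 of the remaining 16 passed in any comparison, 1, 2 and 1 had an unadjusted p under 0.05, and their medians were -0.11 in Y3/CD103-/- against Y3, 0.16 in Y3 against WT and -0.03 in Y3/CD103-/- against WT.

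None of the other genes of the window passed, with differences that reached -0.57 in Y3/CD103-/- against WT (adjusted p = 0.398). Smtnl2, a smoothelin-like protein gene 23 positions before Itgae, had a log2 difference of -0.31 between Y3/CD103-/- and Y3 (adjusted p = 0.583). Cyb5d2, which encodes a haem-binding protein and lies 11 positions before, had 0.45 between Y3 and WT (adjusted p = 0.236), with groups that did not overlap. It read 4.09, 4.32 and 3.90 on Y3/CD103-/- arrays 1, 2 and 3, 4.49, 4.31 and 4.36 on the Y3 arrays, and 4.11, 4.05 and 3.67 on the WT arrays. A receptor-family pseudogene of the window, counted and not named, was the 1 gene lower at an unadjusted p under 0.05 in Y3/CD103-/- against WT (-0.54) and in Y3 against WT (-0.62). The corresponding window around Il2rb held 27 tested genes, of which 0 passed in any of the 3 comparisons. Their medians were -0.12 in Y3/CD103-/- against Y3, 0.08 in Y3 against WT and 0.00 in Y3/CD103-/- against WT. In that order, 3, 4 and 6 of the 27 had an unadjusted p under 0.05, against 9.9%, 17% and 13.3% of all genes.

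**Figure D4:**
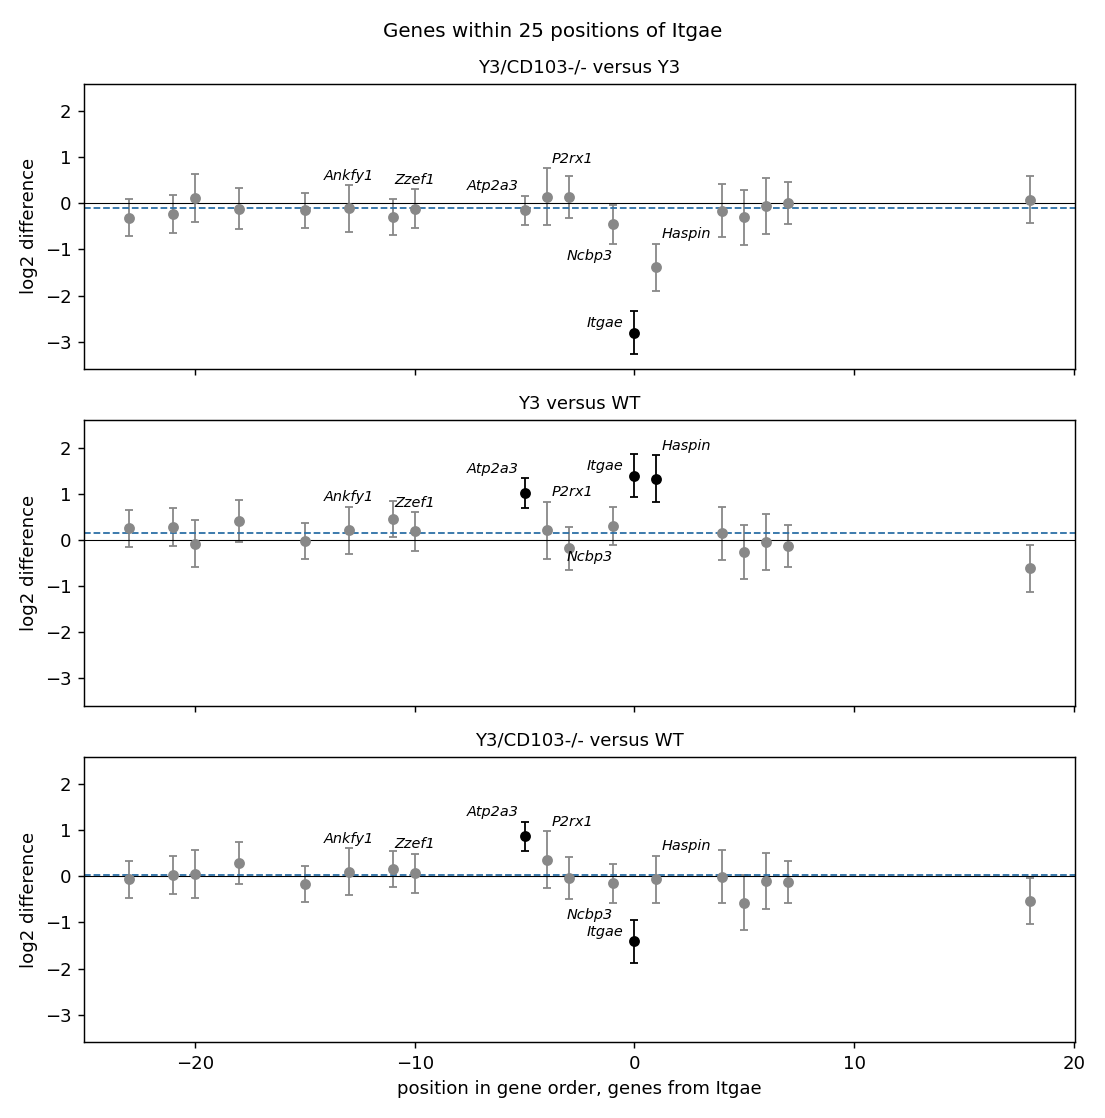
Log2 difference (vertical axis) with 95% interval for Itgae and the 18 tested genes within 25 positions of it (horizontal axis, gene order), in each comparison; black marks adjusted p under 0.05, the dashed line is the median of all genes. Haspin alone among the 18 lies below -1 in Y3/CD103-/- against Y3, and genes on either side of it scatter around the median.

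Genes that work with the neighbours were read from lists by role, which exclude the neighbours themselves. Of 12 tested genes of calcium stores and entry, 1 passed: Atp2b4, a plasma-membrane pump that expels calcium, read 8.08, 8.02 and 7.92 on Y3/CD103-/- arrays 1, 2 and 3, 7.67, 7.53 and 7.77 on the Y3 arrays, and 6.65, 7.22 and 6.92 on the WT arrays. It rose by 1.07 log2 in Y3/CD103-/- against WT (adjusted p = 0.0220), while the difference of 0.73 between Y3 and WT missed the threshold (0.0889). Leaving out WT array 1 or 3 or any Y3/CD103-/- array ended its call, at 0.0569 to 0.0755, as did 3 of 12 other settings (up to 0.0972). Furin, the convertase that cuts proproteins before carboxypeptidases trim them, read 8.10, 8.47 and 8.20 on the Y3/CD103-/- arrays, 7.90, 7.66 and 7.71 on the Y3 arrays, and 7.26, 7.52 and 6.92 on the WT arrays. It was the 1 of 5 tested genes of its list that passed, with a rise of 1.03 log2 in Y3/CD103-/- against WT (adjusted p = 0.0337). Leaving out any array but WT array 2 ended that call, at 0.0585 to 0.101, as did 6 of 12 other settings (up to 0.131). For Atp2b4 and Furin, as for Atp2a3 and Cpd, the 6 arrays with Y3 lay above the WT arrays.

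Over all genes, 0.836% passed in Y3/CD103-/- against WT, beside these 1 of 12 and 1 of 5. In the other 5 lists 0 genes passed in any comparison (limma). At an unadjusted p under 0.05 each of these 5 held 0 to 2 genes in Y3/CD103-/- against Y3 (9.9% of all genes), 0 to 4 in Y3 against WT (17%) and 0 to 2 in Y3/CD103-/- against WT (13.3%), the most among these 5 being 4 of 11 genes of cap binding and mRNA export. Of the 12 calcium genes, 0, then 5 higher, then 3 higher had such a p, in the same order of comparisons. Of the 5 genes in the list of Furin, 2 were higher, then 2 higher and 1 lower, then 1 higher and 1 lower. Of 9 tested genes of the chromosomal passenger complex and its partners, which act with haspin in mitosis, 0 passed and 1 had an unadjusted p under 0.05: Sgo2a, a shugoshin that protects centromeric cohesion, differed by -0.62 between Y3/CD103-/- and Y3 (adjusted p = 0.466). The median of these 9 was -0.10 in Y3/CD103-/- against Y3, 0.16 in Y3 against WT and 0.11 in Y3/CD103-/- against WT, near that of all genes, beside differences of -1.39, 1.33 and -0.06 for Haspin itself. P2rx7, the ATP receptor best known on T cells, differed by 0.51 in Y3 against WT (adjusted p = 0.145). It is 1 of 4 tested genes of its list, which holds P2X receptors and Panx1. Of 10 genes of calmodulin kinases and AMPK, Stk11, an upstream kinase of AMPK, had the smallest p, at 0.56 in Y3/CD103-/- against WT (adjusted p = 0.172). Of 11 genes of cap binding and mRNA export, Alyref, an export adaptor, had 0.65 in that comparison (0.0865). Of 10 early endosome genes, Ehd1, which acts in endosomal recycling, had 0.79 in the same comparison (0.0527) and 0.81 in Y3 against WT (0.0505), and both passed with trended and robust variance (0.000820 and 0.00104).

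The genes with the most similar profiles were ranked by the mean absolute difference from each gene over the 9 arrays, after centring each gene on its own mean, as a description over arrays that share their groups. For Itgae the nearest named genes were Tagap1 (0.531 log2), Pbx2, a homeobox factor (0.576), and Slc28a2b, a nucleoside transporter gene (0.606). Haspin came at rank 6 of all tested genes, at 0.614, and Ncbp3 at rank 558. For Haspin they were Aff3 (0.251), Cdh24 (0.261) and Platr27 (0.266). Seen from Haspin, Itgae came only at rank 7833, at the same 0.614, and Ncbp3 at rank 505. The rank thus depends on which of the genes is taken as the start. For Atp2a3 they were Cenpa (0.0885), the centromeric histone variant, Oaz2 (0.103) and Themis (0.106), and Cpd came at rank 11. For Cpd they were Gzmb (0.0806), which encodes granzyme B, Thap6 (0.108) and Lin54 (0.108), and Atp2a3 came at rank 13.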

How the data were processed

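The deposited values are log2 signals from Affymetrix Mouse Gene ST2.0 arrays, which the authors made by RMA, as named in the submitters' processing notes. The sources used here do not give its version or settings. Of 39137 rows, 23521 name 1 gene in the platform annotation and 1814 several, which were left out. The brightest row of each of 22180 genes was kept, and the 12792 genes above their own array's median on at least 3 of the 9 arrays were tested. Group means were fitted over all 9 arrays with limma 3.58.1 in R 4.3.3 (lmFit and eBayes, 2-sided, 10.8 degrees of freedom), with no block, and p-values were adjusted over all tested genes by the Benjamini-Hochberg method; genes under 0.05 were called. An exact test of 3 arrays against 3 cannot go below 0.1 and was not used. The fit was checked on simulated data. Symbols, gene order and promoters came from RefSeq tables (GRCm38.p6), in which 23328 rows were matched and 0 symbols changed.

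The neighbours, lists and rules were chosen with earlier results of these data known. Named are the neighbours and Itgae, 2 genes as label checks, called genes within 25 genes of Itgae and the 3 with the largest differences there in Y3/CD103-/- against Y3 and in Y3 against WT, and from each role list the called genes or otherwise the gene of smallest p. The 3 nearest profiles were named for genes whose group means span at least 0.5 log2. Predicted genes, genes with provisional symbols, small RNAs and receptor families were counted and not named. Alternatives changed the filter, rows, scaling, variance model, weights, arrays, block and window.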

Additional observations from a re-analysis of the deposited data

How the results depend on the processing

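Counts here are of Itgae and its 7 tested neighbours, then of the 18 tested genes of the window. Between Y3/CD103-/- and Y3 the first count was 1; it was 2 with trended and robust variance, 2 with array weights and 0 with each gene's own spread, and the window's count of 0 became 1 with either of the first 2 settings. In Y3 against WT the count of 4 became 2 without the dim filter, 2 with quantile normalization, 1 with each gene's own spread and 0 with Y3 arrays 1 and 3, the most alike pair, averaged. The window's count of 2 became 1, 1, 1 and 0 under those settings. Against WT, the Y3/CD103-/- count of 3 became 0 with the 2 groups fitted alone. In that comparison Atp2a3 ended as a call in 4 of 12 other settings, Itgae in 2 and Cpd in 1. Falls of these counts from 4 to 3 or from 3 to 2 in further settings are not listed. The window's count of 1 became 0 with the 2 groups fitted alone, without the filter, with those Y3 arrays averaged and with the replicate block. With an array left out, the counts ran from 1 to 1, 0 to 4 and 0 to 3, and for the window from 0 to 0, 0 to 2 and 0 to 1, in the same order of comparisons; the Y3 against WT count was 0 without Y3 array 1 or 3, and that of Y3/CD103-/- against WT was 0 without WT array 1. The cause was not tested. Over all genes, the 3 counts called ran up to 10, 346 and 309 with trended and robust variance, and the last 2 fell to 12 with the Y3 arrays averaged and 17 with the 2 groups alone. With an array left out they ran from 8 (without Y3 array 3) to 119 in Y3 against WT and from 28 (without Y3/CD103-/- array 3) to 70 in Y3/CD103-/- against WT. Cpd was lost from Y3 against WT in 7 of 12 other settings and Haspin in 4.

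Same-numbered arrays of different groups correlated at -0.04 to 0.11 in their deviations, 1 of 9 pairs over 0.1. Among the arrays of other groups, 4 of 9 arrays correlated best with one of their own number. These values gave no clear sign that the numbers pair the samples. With so few arrays the check cannot settle it, and the labels do not say. With the replicate block, 1, 3 and 2 of Itgae and its neighbours passed, and 1, 54 and 55 of all genes. The rises of Atp2b4 and Furin in Y3/CD103-/- against WT also missed the threshold with the block (0.0533 and 0.0585).

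Differences that did not pass changed sign as follows. For Y3/CD103-/- against Y3, P2rx1 was -0.0206 with the Y3 arrays averaged and ran from -0.0739 (without Y3 array 1) to 0.482 with an array left out. Zzef1 was 0.00615 with quantile normalization and 0.0351 with arrays centred on the median of the tested genes, a setting chosen after seeing the data. Ankfy1 was 0.0108 and 0.0392 under the same settings and ran from -0.334 to 0.0849 (without Y3/CD103-/- array 1). For Y3 against WT, P2rx1 was -0.0278 with array weights and ran from -0.123 (without Y3 array 2) to 0.433. For Y3/CD103-/- against WT, Haspin ran from -0.203 to 0.165, above 0 without WT array 1 (0.123) or Y3/CD103-/- array 2. Zzef1 ran from -0.102 (without WT array 3) to 0.231. Ankfy1 ran from -0.125 to 0.294, below 0 without WT array 3 (-0.0370) or Y3/CD103-/- array 2. Windows of 10 and 50 genes, and of 25 tested protein-coding genes (also chosen after seeing the data), moved no count.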

Other observations

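Of the 10 genes with the smallest p in Y3/CD103-/- against Y3, 4 lay on chromosome 11, where 8.34% of the tested genes with a chromosome lie (1066 of 12776). Itgae and Haspin are 2 of them. Another, a gene with a provisional symbol 36 positions before Itgae, read 3.41, 3.02 and 3.18 on Y3/CD103-/- arrays 1, 2 and 3, 4.08, 4.17 and 4.16 on the Y3 arrays, and 3.56, 3.66 and 3.33 on the WT arrays (adjusted p = 0.182). It was dim in Y3/CD103-/-, where the array medians were 3.23, 3.15 and 3.21. The remaining one lies far from Itgae. This count was noticed after the values were seen and carries no test.

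Of the other 6, Tagap1, Pbx2 and H2-Ob lie on chromosome 17. The share of all tested genes on that chromosome was not counted, so only their location is given. Pbx2 read 2.96, 3.04 and 2.81 on the Y3/CD103-/- arrays, 3.98, 4.15 and 4.15 on the Y3 arrays, and 3.81, 3.62 and 3.50 on the WT arrays, a difference of -1.16 between Y3/CD103-/- and Y3 (adjusted p = 0.0730). Tagap1 differed by -1.41 (adjusted p = 0.122). Both stood lowest in Y3/CD103-/- on every array.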
